A study of Mus musculus with 6 samples.

Results

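The epidermal differentiation complex (EDC) is a cluster of genes on mouse chromosome 3 that code for the building blocks of the cornified envelope. Its members were taken by position, as every protein-coding gene on chromosome 3 (mm10) whose lower coordinate lay between 91.9 and 93.5 Mb and whose name did not start with S100. This gave 63 genes of the 43346 listed, and of 22032 that were protein-coding. A further 32 entries in the interval were left out as pseudogenes and non-coding RNAs, and no S100 gene lay inside it. The interval was chosen by the difference in counts between senescent and control cells, which was already known, so the values of its members in senescent and control cells are given as a description, without p-values.

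RNA-seq counts came from mouse adult fibroblasts (MAFs), primary ear cells of the C57BL6/J strain taken from adult females, used at passages 3 to 8 and kept at 3% oxygen. The 3 senescent samples were exposed to X-rays (20 Gy) and cultured for a further 21 days, and the 3 control samples were sham irradiated. Both groups were given 100 nM dexamethasone for 2 hours, which synchronizes the circadian clock, and RNA was collected 12 hours later. The labels do not say whether replicates were separate cultures, so the p-values below measure the spread between these samples only.

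In stratified epidermis, keratinocytes that leave the basal layer switch on EDC genes in sequence as they flatten and die. Involucrin and the small proline-rich (SPRR) proteins are laid down early beneath the plasma membrane, loricrin and the late cornified envelope (LCE) proteins follow, and transglutaminases cross-link them into a rigid shell. Proteins of the S100-fused type, such as filaggrin and trichohyalin, bind or bundle keratin filaments. Dermal fibroblasts are not known to build such a shell, and AP-1, Klf4 and grainyhead factors are known as activators of the locus in keratinocytes.

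The stretch upstream of the start site is shown for 6 members, with each AP-1 heptamer (TGACTCA or its reverse complement TGAGTCA) and each TATAAA in capitals. That of Sprr1a stops short of the RefSeq start site, since bases inside its gene record were left out. Ivl, Sprr1a, Sprr2k and Sprr2h were expressed in senescent cells and carry the heptamer. Sprr2f carries it and was almost without counts, and Lce1g was expressed and carries neither motif in these bases. The sequences are those of RefSeq on build GRCm38.p6, written 5′ to 3′ on the strand of the gene, for Ivl (chr3:92573736-92573935, minus strand), Sprr1a (chr3:92485896-92486081, minus), Sprr2k (chr3:92432382-92432581, plus), Sprr2h (chr3:92385485-92385684, plus), Sprr2f (chr3:92364987-92365186, plus) and Lce1g (chr3:92752339-92752538, minus).
Ivl: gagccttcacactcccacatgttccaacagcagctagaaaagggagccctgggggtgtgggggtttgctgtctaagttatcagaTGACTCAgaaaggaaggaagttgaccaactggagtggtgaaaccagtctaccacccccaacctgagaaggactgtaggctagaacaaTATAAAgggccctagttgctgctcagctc
Sprr1a: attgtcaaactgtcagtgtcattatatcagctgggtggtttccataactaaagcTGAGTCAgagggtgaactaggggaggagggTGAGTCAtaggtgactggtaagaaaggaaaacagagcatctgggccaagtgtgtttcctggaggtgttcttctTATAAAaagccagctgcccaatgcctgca
Sprr2k: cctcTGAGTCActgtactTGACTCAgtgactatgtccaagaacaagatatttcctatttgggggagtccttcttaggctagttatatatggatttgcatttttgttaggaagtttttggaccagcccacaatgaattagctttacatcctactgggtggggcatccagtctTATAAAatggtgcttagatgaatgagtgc
Sprr2h: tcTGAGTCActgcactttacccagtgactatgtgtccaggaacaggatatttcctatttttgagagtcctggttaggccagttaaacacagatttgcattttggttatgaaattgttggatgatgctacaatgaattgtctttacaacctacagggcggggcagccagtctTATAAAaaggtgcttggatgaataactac
Sprr2f: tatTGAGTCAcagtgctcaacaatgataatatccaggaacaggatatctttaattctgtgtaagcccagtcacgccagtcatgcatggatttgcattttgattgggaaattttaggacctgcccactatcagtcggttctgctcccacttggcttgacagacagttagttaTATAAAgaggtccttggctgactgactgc
Lce1g: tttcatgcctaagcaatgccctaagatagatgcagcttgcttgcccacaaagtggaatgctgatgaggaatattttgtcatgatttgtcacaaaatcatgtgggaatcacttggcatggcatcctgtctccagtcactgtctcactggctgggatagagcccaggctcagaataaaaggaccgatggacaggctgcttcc

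Of the 63 members, 47 had a RefSeq promoter of 250 bases before to 50 bases after the start site. Those of Crct1, Kprp and Pglyrp3, all expressed in senescent cells, were not among them. The AP-1 heptamer was present on either strand in 11 of the 47 (23.4%), against 5.2% of all 32851 promoters. It was in 4 of the 11 promoters of members with at least 10 counts in every library of a group. Of the 36 promoters of low or silent members, 7 held it. Measured from the RefSeq start, the heptamer lay 116 bases before that of Ivl and 116 and 146 bases before that of Sprr1a. The printed stretch of Sprr1a ends before this start. In Sprr2k the heptamer lay 182 and 196 bases before the start. In Sprr2b, Sprr2d, Sprr2e, Sprr2f, Sprr2h and Sprr2i it began 193 to 198 bases before the start. The remaining carriers were Lor and Prr9. All 11 carriers also held TATAAA, which was found in 22 of the 47 member promoters (46.8%) and in 13.6% of all. The SPRR2 promoters resemble each other, so these carriers do not count as separate occurrences. The E-box CACGTG, the motif bound by BMAL1 with CLOCK, was in 2 of the 47 (4.26%, against 7.15% of all), in Lce3a and Prr9. GGGCGG was in 1 of the 47 (2.13%, against 35.7%) and CACACCC in 2 (4.26%, against 7.95%). No match of a motif overlapped a match of another (0 overlaps). A match is a description of the letters in this window and not of binding.

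Apart from Gm9774, control MAFs held almost no EDC transcripts, and senescent MAFs held 14 members at 10 or more counts in every library. In control cells, 55 of the 63 members had 0 counts in all 3 libraries. In senescent cells, 49 had at least 1 count, 29 had counts in all 3 libraries and 14 had none. Summed over all members except Gm9774, the level was 0.291 ± 0.0336 CPM in control libraries (counts scaled to library size by TMM, mean ± SD, n = 3) and 79.7 ± 5.62 CPM in senescent ones. The senescent replicates held 83.9, 82.0 and 73.3 CPM, so the groups were far apart and replicate 3 was the lowest of the senescent libraries. Gm9774 was kept out of this sum because it was expressed alike in both groups and shared 75.0% of its 100-base windows with transcripts of Adrm1, a proteasome subunit, so that the origin of its reads is uncertain. Its counts were 269, 326 and 284 in control and 376, 535 and 409 in senescent cells, with a log2 fold change of 0.14 (SE 0.14).

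**Figure D1:**
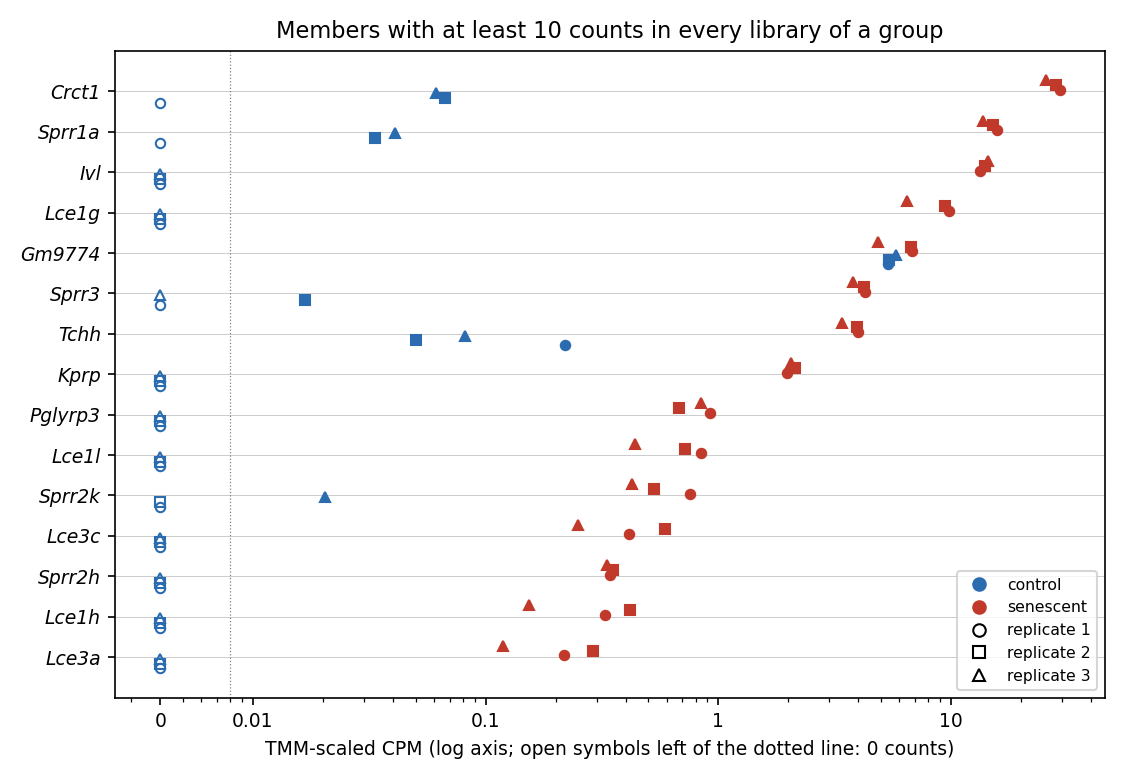
TMM-scaled CPM (log axis) of the 15 members with at least 10 counts in every library of a group. Blue marks control and red senescent libraries, the symbol gives the replicate, and open symbols left of the dotted line stand for 0 counts. Apart from Gm9774, the genes met this limit only through the senescent libraries. That their senescent values lie to the right of their control values is favoured by this choice and is a description only. Of the 15 genes, 9 had no control count at all.

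After the filter on low counts, 13 of the 63 members were left among the 17589 genes tested. Of these, 12 were called higher in senescent cells (edgeR, adjusted p under 0.05 and a fold change over 2) and none lower, Gm9774 being the exception. Over all genes, 17.7% were called higher and 12.3% lower, 30.0% in either direction. The same 13 members gave 12 calls at an unadjusted p under 0.05 with the fold limit, where 30.1% of all genes were called, and 12 at an adjusted p without a fold limit, where 70.3% were. A member with no control reads could pass the filter only through the senescent libraries and so had to differ, and nothing about the locus is read from that count. Folds below are therefore given as lower bounds against 3 counts per control library where all control libraries were at 0. Where a few control counts were present they are given as ratios of summed counts, corrected for library size, with a 95% interval that covers counting error only.

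Among the early envelope precursors, Ivl and Sprr1a were the most abundant. Ivl (involucrin, chr3:92570902-92573735), the scaffold on which the envelope is assembled, had 0 counts in the 3 control libraries and 741, 1114 and 1222 in the senescent ones. That is 13.97 ± 0.560 CPM, at least 244-fold higher than control, and the highest senescent replicate was 1.08 times the lowest. Sprr1a, a cross-linked bridge between other envelope proteins, had 0, 2 and 2 counts in control and 875, 1200 and 1160 in senescent cells (14.9 ± 1.04 CPM). The ratio was 585 (interval 228 to 2150).

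The other SPRR genes covered a wide range. Sprr3, best known from oral and oesophageal epithelium, had 0, 1 and 0 counts in control and 238, 337 and 320 in senescent cells, or 4.11 ± 0.279 CPM. Its single control count leaves the ratio of 648 with an interval of 116 to 25616. Sprr2k had 0, 0 and 1 counts against 42, 42 and 36, a ratio of 86.9 (15.3 to 3459), and Sprr2h had 0 against 19, 28 and 28, at least 5.99-fold. All senescent values of these genes were above all control values, which their naming by senescent counts favours. The remaining SPRR genes were close to empty. Sprr1b, the closest relative of Sprr1a by name, reached 7, 7 and 12 counts, Sprr2e 3, 6 and 4, and Sprr2i 2 in each senescent library. Sprr2a2, Sprr2a3, Sprr2b, Sprr2d, Sprr2f and Sprr2j-ps had 0 to 3 counts in any library, and Sprr2a1 and Sprr4 had none. Reads of Sprr2a1 and Sprr2a2 can hardly be told apart, since 92.5% and 92.8% of their 100-base windows occur in another gene, and a low count for either is uncertain. Of 15 SPRR genes, 4 reached 10 counts in every senescent library, 9 had lower counts and 2 were silent. The family summed to 20.2 ± 1.45 CPM in senescent cells.

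Crct1, a small cysteine-rich protein gene of the complex, was the highest member. Its counts were 0, 4 and 3 in control and 1632, 2250 and 2167 in senescent cells, or 27.8 ± 1.95 CPM, with a ratio of 625 (303 to 1556). Kprp, a keratinocyte proline-rich protein, had 0 counts against 110, 169 and 174 (2.06 ± 0.0740 CPM, at least 36.0-fold). Lor (loricrin), the most abundant protein of the finished envelope in skin, stayed near the floor with 0, 0 and 2 counts in control and 3, 3 and 6 in senescent cells. Prr9 had 7, 15 and 11 counts and Lelp1 had 2, 3 and 5 in senescent cells, with 0 in control. The ratio for Lor was 4.34 with an interval of 0.967 to 40.0, so a difference was not detectable at this depth, beside the high counts of Ivl and Crct1 in the same libraries.

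All 21 LCE genes had 0 counts in all control libraries. Lce1g was far above the rest of the family in senescent cells, with 545, 751 and 549 counts (8.61 ± 1.83 CPM, at least 150.4-fold). Lce1l followed with 47, 57 and 37 counts (at least 11.7-fold), and Lce3c with 23, 47 and 21 (at least 7.32-fold). Lce1h had 18, 33 and 13 counts (at least 5.22-fold) and Lce3a had 12, 23 and 10 (at least 3.64-fold), and both were under the filter for testing. Between 24.1% and 43.0% of the windows of Lce3c, Lce3d, Lce3e and Lce3f are shared, so counts among them may be split. Just outside the limit of 10 counts in every library, Lce1f had 17, 12 and 7 counts. A further 12 LCE genes had between 0 and 4 counts in any library, and Lce1a1, Lce1b and Lce1d had none. Expression within the family was uneven between neighbours, with Lce1g at 9.30 CPM per kb of transcript and Lce1h, which starts next to it, at 0.423 CPM per kb.

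Of the 7 genes of the S100-fused type, only Tchh reached 10 counts in every senescent library. Trichohyalin, a protein of the inner root sheath of the hair follicle, had 11, 3 and 4 counts in control and 221, 314 and 287 in senescent cells. Its level was 3.78 ± 0.332 CPM, the ratio was 33.1 (20.8 to 56.1) and the fitted log2 fold change was 5.03 (SE 0.31), 5.83 without control replicate 1 and 4.62 without control replicate 2. No control library overlapped a senescent one, though Tchh too was named for its senescent counts. Filaggrin, whose breakdown products hydrate the horny layer, had 1 count in a single senescent library (Flg), and Flg2 and Hrnr (hornerin) had none. Rptn (repetin) had 3, 2 and 6 counts, Crnn (cornulin) 4, 2 and 3, and Tchhl1 0, 3 and 3. The 6 unnamed protein-coding entries inside the span of Flg were silent in every library.

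The last members are not envelope proteins. Pglyrp3, a secreted peptidoglycan recognition protein that kills bacteria, had 0 counts in control and 51, 54 and 71 in senescent cells (0.814 ± 0.122 CPM, at least 14.2-fold). It is the first member of the interval. Smcp, a protein of sperm mitochondria, had 2, 2 and 4 counts. Gm4858 was present in both groups at the floor, with 2, 7 and 4 counts in control and 2, 0 and 10 in senescent cells. The entries 2210017I01Rik, 2310050C09Rik and RP24-435G16.5 had 0 to 9 counts in senescent libraries and none in control, and RP24-157G15.1 was silent.

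**Figure D2:**
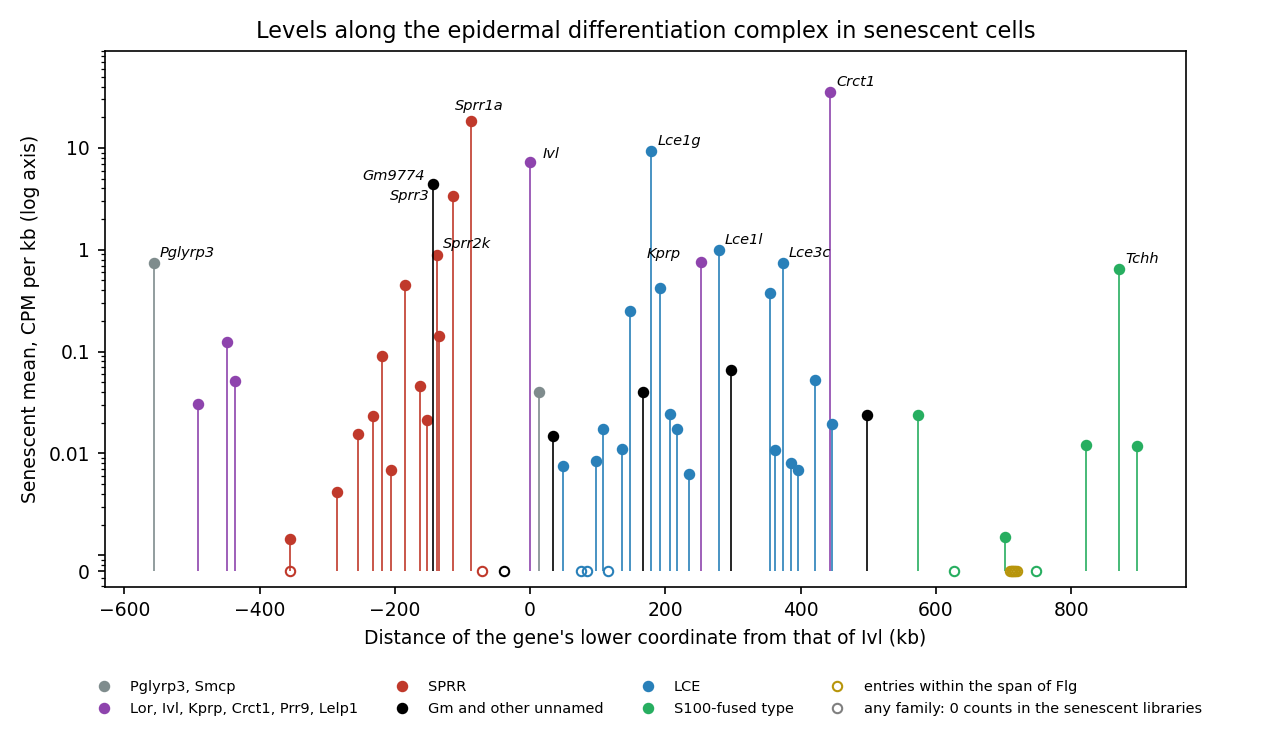
Mean level of each member in the 3 senescent libraries, in CPM per kb of transcript on a log axis, against the distance of its lower coordinate from that of Ivl in kb. Colours give the gene families and open circles stand for 0 counts. The highest genes, Crct1 (35.1), Sprr1a (18.5), Lce1g (9.30) and Ivl (7.27), lie apart from each other with silent and near-silent genes between them.

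Leaving out Gm9774 (4.40 CPM per kb), whose reads are uncertain, the senescent mean per kb of transcript was 35.1 CPM for Crct1, 18.5 for Sprr1a, 9.30 for Lce1g and 7.27 for Ivl. The replicate ranges of Crct1 and Sprr1a did not overlap, while those of Lce1g and Ivl did. Sprr3 followed at 3.37 CPM per kb. Well below it came Lce1l at 0.998, Sprr2k at 0.897, Kprp at 0.755, Lce3c at 0.739, Pglyrp3 at 0.736 and Tchh at 0.650. From Lce1l to Tchh, the replicate ranges of neighbours in this order overlapped. Sprr2h, Lce1h and Lce3a lay at 0.456, 0.423 and 0.380 CPM per kb.

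The 48 members with fewer counts were 34 genes with some counts and 14 that were silent in all 6 libraries. Of the 34, 17 had at most 3 counts over the 3 senescent libraries together, and the highest single count was 17. Just below the limit that separated the 2 sets stood Lce1f, Prr9 and Sprr1b, at least 3.15-, 2.60- and 2.08-fold above control. A count of 0 in a senescent library allows up to 0.0355 to 0.0541 CPM, so a silent member was not detectable at this depth rather than absent.

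The members were also set beside the other protein-coding genes with few or no control reads, as a description that the choice of the interval shapes. No control library exceeded 3 counts for 59 members and for 7178 other protein-coding genes. Of the members, 12 (20.3%) reached 10 counts in each senescent library, and of the others 605 (8.43%). With a limit of more than 3 counts in each senescent library the shares were 25.4% and 16.1%, and with any senescent count 76.3% and 59.4%. Ranked by level among the 617 genes of both kinds, Sprr1a, Ivl and Lce1g took ranks 1, 2 and 3, Sprr3 rank 9 and Kprp rank 28. Crct1, with 4 control counts in a library, fell outside this set.

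All 5 named LCE genes were lowest in senescent replicate 3, as were 6 of the 9 other named members with Gm9774 left aside. Replicate 3 held 6.50 CPM of Lce1g, against 9.83 and 9.48 CPM in replicates 1 and 2. Relative to the mean of replicates 1 and 2, replicate 3 stood at 0.674 for Lce1g, 0.559 for Lce1l, 0.494 for Lce3c, 0.468 for Lce3a and 0.416 for Lce1h. The same ratio was 1.06 for Ivl, 1.00 for Kprp, 0.889 for Sprr1a and 0.888 for Crct1, though Sprr2k was as low as the LCE genes at 0.662. Its median over all tested genes was 1.01, and 9.06% of them were at or below the ratio of Lce1g. As a share of all EDC counts except Gm9774, the LCE genes took 14.5% (exact binomial 95% interval 13.5 to 15.5), 14.4% (13.5 to 15.2) and 10.4% (9.64 to 11.2) in replicates 1, 2 and 3. SPRR genes took 25.5%, 25.1% and 25.4% and Ivl 15.9% (14.9 to 17.0), 17.1% (16.2 to 18.1) and 19.7% (18.8 to 20.8). The intervals cover counting error only and not the spread between samples, so the low LCE share and high Ivl share of replicate 3 are given without a test. This pattern was noticed in the values and concerns 1 library.

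**Figure D3:**
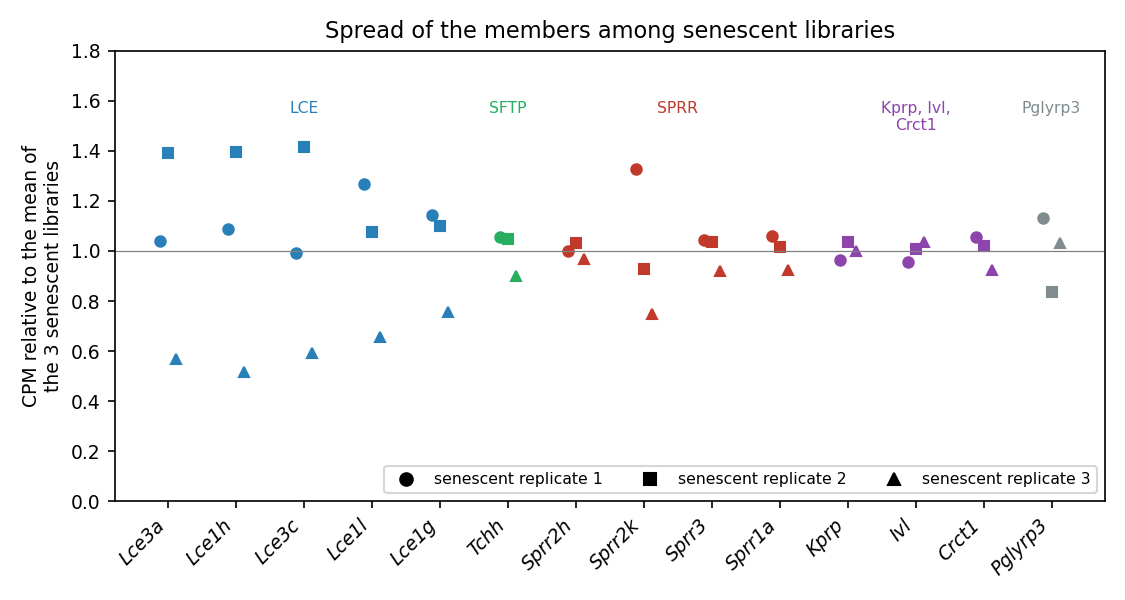
CPM of 14 members in each senescent library, divided by the mean of the 3 senescent libraries of that gene (vertical axis). Colours give the families and symbols the replicate. Triangles, replicate 3, are the lowest symbol for 11 of the 14 genes, 5 of them LCE genes, and lie close to 1 for Ivl and Kprp.

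The genes on either edge of the complex differed in level. Beyond Pglyrp3, the nearest protein-coding gene outside was 9130204L05Rik with 0 counts in control and 9, 12 and 23 in senescent cells. Beyond Tchhl1 lay S100a11, abundant in both groups at 441 ± 9.71 CPM (control) and 324 ± 14.6 CPM (senescent). Among 31 tested protein-coding genes within 1.5 Mb on either side, 10 were called higher and 2 lower, against 30.0% called in either direction over all genes. Of the 18 that are not S100 genes, 4 were higher and 2 lower. Among the 4, Npr1, Them5 and Cgn passed the filter on low counts only through the senescent libraries. Under the quasi-likelihood model of edgeR, with p-values adjusted by Benjamini and Hochberg's method here and below, Tuft1 rose by 2.48 on the log2 scale (SE 0.11, adjusted p = 6.6e-07) and Selenbp1 fell by 2.79 (SE 0.12, adjusted p = 4e-07), as did Rfx5, an activator of MHC class II genes, by 1.26 (adjusted p = 1.57e-06).

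S100 genes code for small calcium-binding proteins, several of which are known from stressed or inflamed epidermis. Most lie on either side of the complex, and 13 tested ones in the flanks gave 6 calls higher and 0 lower. Among these 6, S100a2, S100a5, S100a8 and S100a14 passed the filter on low counts only through the senescent libraries. The filter favours such calls, so nothing more is read from this count. Over the whole family, 15 were tested, 6 were called higher and 1 lower, where 17.7% of all genes were called higher and 12.3% lower. S100a8, an alarmin of inflamed skin, had 0, 2 and 0 counts in control and 77, 98 and 109 in senescent cells (ratio 103, interval 28.2 to 853), and passed the filter on low counts only through the senescent libraries. Its partner S100a9 had at most 2 counts in a library. S100a7a, the mouse relative of psoriasin, had 44, 60 and 48 against 569, 734 and 810 counts (3.34, SE 0.11, edgeR adjusted p = 1.06e-07), and S100a3, a hair cuticle protein, rose by 2.18 on the log2 scale (SE 0.18, edgeR adjusted p = 1.61e-05). S100g, which lies on chromosome X, fell by 1.44 (SE 0.32, edgeR adjusted p = 0.00428). The most abundant members of the family stayed within a 2-fold change, with S100a4 at 1603 and 959 CPM and S100a6 at 742 and 960 CPM in control and senescent cells.

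Cornification genes elsewhere in the genome changed in both directions. Of 44 listed genes, 43 were in the table, 30 were tested, 12 were called higher and 5 lower, where 17.7% and 12.3% of all genes were. Their median log2 fold change was 0.47, against 0.01 over all tested genes. Some of those called higher, Abca12, Klk7 and Pnpla1 among them, passed the filter on low counts only through the senescent libraries. Klk6, called lower, passed it only through the control ones. The filter thus favours such calls, and nothing more is read from the counts or the median. Serpinb2, which is cross-linked into the envelope and was known as a strong increase when the list was made, had 3, 7 and 3 counts in control and 5229, 7178 and 10060 in senescent cells (ratio 1251, interval 731 to 2350), and it too passed the filter only through the senescent libraries. St14 (matriptase), a protease that acts in profilaggrin processing, rose by 3.22 (SE 0.25, edgeR adjusted p = 1.35e-05) and Elovl4, which lengthens the fatty acids of barrier ceramides, by 2.45 (SE 0.13, edgeR adjusted p = 1.28e-06). Cdsn (corneodesmosin) fell by 3.16 (SE 0.16, edgeR adjusted p = 1.03e-06), from 71.0 ± 4.05 to 7.99 ± 1.70 CPM. Calml3, a calmodulin-like protein of epithelia, fell by 2.76 (SE 0.12, edgeR adjusted p = 4.35e-07) and Blmh, which degrades filaggrin fragments, by 1.28 (SE 0.06, edgeR adjusted p = 5.42e-07). Ugcg, which adds glucose to ceramide, had a control level of 49.7 CPM and a senescent level of 99.2 CPM. It stood at a log2 fold change of 1.00, just under the limit for a call, and passed it under 7 of 12 other settings. Tgm1, the main cross-linking transglutaminase of epidermis, was not called and stood at 1.58 ± 0.266 CPM (control) and 0.996 ± 0.172 CPM (senescent). Tgm3 and Tgm5 had at most 20 counts in a library.

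**Figure D4:**
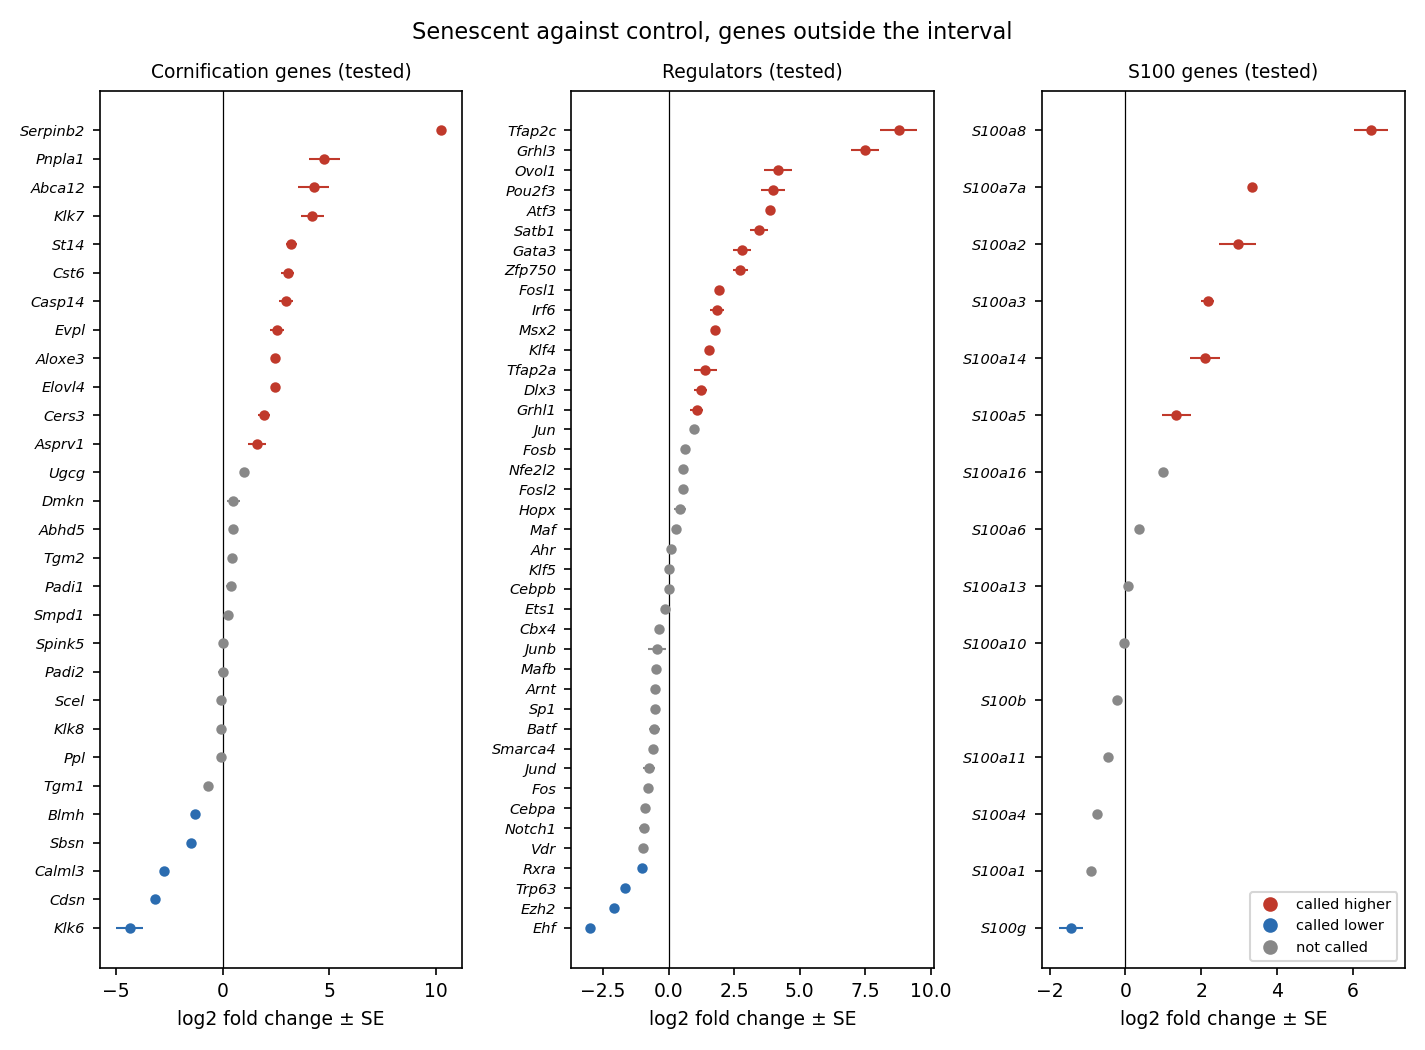
Log2 fold change of senescent against control cells with its SE (horizontal axis) for tested cornification genes outside the complex (29 of the 30), regulators and S100 genes. Red marks genes called higher, blue called lower and grey not called. In the 3 lists 12, 15 and 6 genes were called higher and 5, 4 and 1 lower. Some of them, such as Klk7 (higher) and Klk6 (lower), passed the filter on low counts only through the libraries of 1 group. Over all genes, 17.7% were called higher and 12.3% lower.

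Transcription and chromatin factors known for the complex changed in both directions. Of 46 listed, 41 were tested, 15 were called higher and 4 lower, where 17.7% and 12.3% of all genes were. Some of the 15, with Grhl3, Tfap2c, Gata3, Pou2f3 and Zfp750 among them, passed the filter on low counts only through the senescent libraries. The filter favours such calls, so nothing more is read from this count. Atf3, a stress-induced partner of AP-1 subunits, rose from 0.694 ± 0.0445 to 10.1 ± 0.454 CPM (3.86, SE 0.11, edgeR adjusted p = 5.53e-08). Klf4, which drives terminal differentiation of keratinocytes, rose by 1.54 (SE 0.06, edgeR adjusted p = 2.6e-07) and the homeobox gene Msx2 by 1.77 (SE 0.09, edgeR adjusted p = 9.91e-07). Ehf, an epithelial ETS factor, fell by 2.99 (SE 0.10, edgeR adjusted p = 1.47e-07), and Ezh2, a methyltransferase of the repressive Polycomb complex, by 2.09 (SE 0.10, edgeR adjusted p = 7.2e-07). Trp63, the master regulator of stratified epithelium, fell by 1.65 (SE 0.11, edgeR adjusted p = 4.52e-06), from 13.1 to 4.17 CPM. Fosl2 and Ahr were the most abundant, with control levels of 240 and 226 CPM and senescent levels of 351 and 240 CPM. Of 9 AP-1 subunits and relatives on the list, Atf3 and Fosl1 were called higher and none lower, where 17.7% of all genes were called higher. Fosl1 rose by 1.93 (SE 0.16, edgeR adjusted p = 1.69e-05), and Jun stood at 0.98 (SE 0.11), which passed the limit under 8 of 12 other settings. Fos stood at -0.80 (SE 0.10) and Jund at -0.75 (SE 0.21), both within the fold limit. Singled out after their values were seen, Grhl3 had 0, 0 and 1 counts in control and 92, 130 and 97 in senescent cells (ratio 231, interval 41.1 to 9148), and Tfap2c had 0 against 36, 80 and 76 (at least 14.9-fold). Grhl3 is a grainyhead factor of the skin barrier and Tfap2c an epidermal AP-2 factor.

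Markers of keratinocytes were measured because ear tissue holds epidermis. Of 34, 21 were tested, 9 were called higher and 3 lower, where 17.7% and 12.3% of all genes were. Among the 9, Dsp, Krt15, Dsc3, Ly6d and Cldn4 passed the filter on low counts only through the senescent libraries. Nothing more is therefore read from this count. The summed level of the 34 was 283.5 to 286.0 CPM in the control libraries and 167 to 173 CPM in the senescent ones. Most of the control sum was Pkp1, a desmosomal plakophilin, which fell from 204 ± 1.75 to 36.4 ± 1.46 CPM (log2 fold change -2.49, SE 0.06, edgeR adjusted p = 2.54e-08). Without Pkp1 the sum went the other way, from 77.7 to 81.7 CPM in the control libraries to 132 to 135 CPM in the senescent ones. Perp, a desmosomal target of p53, carried this rise, with means of 14.6 CPM (control) and 71.2 CPM (senescent). The sum therefore does not show a rise of the other markers as a group. Lamb3, a laminin chain of the basement membrane, fell by 1.44 (SE 0.14, edgeR adjusted p = 5.1e-05). The desmosomal gene Dsp had 8, 4 and 5 counts in control and 419, 538 and 584 in senescent cells (ratio 65.6, interval 40.8 to 113), and Krt15, a keratin of basal cells, 2, 8 and 3 against 316, 460 and 379 (ratio 64.3, interval 37.5 to 121). The log2 fold change of Perp was 2.29 (SE 0.09, edgeR adjusted p = 2.95e-07). Keratins were uneven. Krt14 had 2 to 12 counts in a library, Krt1 0 to 4 and Krt2 at most 1. Krt17 and Krt80 were singled out after their values were seen. Krt17 was called higher (log2 fold change 2.01, SE 0.32, edgeR adjusted p = 0.000766), as was Krt80 (1.76, SE 0.22, edgeR adjusted p = 0.000189). Krt5 was detected in every library and stood at 1.00 ± 0.161 CPM (control) and 1.53 ± 0.495 CPM (senescent). Krt10, the usual companion of involucrin in suprabasal cells, was at 1.95 ± 0.201 and 1.94 ± 0.0553 CPM. The share of these markers in the EDC values was not tested. In bulk RNA, a few cells with many EDC transcripts and many cells with few cannot be told apart.

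Depth ranged from 50288454 to 61747564 counts in control and from 53792998 to 82229553 in senescent libraries, with TMM factors of 0.968 to 1.03. Fibroblast markers summed to 19178 to 21251 CPM (control) and 7384 to 8685 CPM (senescent), but were called in both directions: Col1a1, Col1a2 and Col3a1 were lower, Dcn and Thy1 higher, and 5 of the 10 were not called. Chondrocyte markers summed to 4930 to 5484 CPM in control and 336 to 407 CPM in senescent libraries, with all 7 tested called lower. Endothelial markers summed to 81.2 to 85.1 and 15.6 to 16.5 CPM, a sum held by Erg, and without Erg to 2.55 to 2.93 and 8.29 to 8.85 CPM, with 4 of 6 tested called higher. Simple epithelium markers summed to 29.5 to 34.3 and 7.52 to 11.7 CPM, or to 4.95 to 5.45 and 3.74 to 5.77 CPM without Krt19, with 2 called higher and 2 lower. Macrophage markers stood at 6.83 to 7.34 and 14.9 to 17.2 CPM and melanocyte markers at 5.62 to 7.10 and 9.65 to 10.97 CPM. Over all genes, 17.7% were called higher and 12.3% lower. The part of these marker shifts in the EDC values was not tested.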

How the data were processed

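The authors prepared poly(A) libraries with a stranded kit from 200 ng of RNA, sequenced paired reads of 100 bases, used the MAPRSeq pipeline, with STAR as the aligner and mm10 as the genome, and counted them per gene with Subread. They deposited the counts per gene without normalization. The strand setting and the handling of multi-mapping reads are not given in the sources used here. Columns were matched to samples by name, and 0 columns were left unused.

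Counts were compared with the quasi-likelihood test of edgeR 4.0.16 (R 4.3.3), robust, with filterByExpr, TMM scaling and group as the only term, over all 17589 genes tested, with the adjustment of Benjamini and Hochberg. A gene was called at an adjusted p under 0.05 with an absolute log2 fold change over 1. On simulated counts, 195 of 200 changed genes were recovered with 10 false positives among 17217 genes tested. This was scored at an adjusted p under 0.05 without the fold limit. The changed genes had means over 1 CPM, so it does not cover genes with few counts. Members and lists were chosen with earlier results of these data known. Members were named where every library of a group held at least 10 counts. In each list and in the flanks, the 3 genes with the smallest p in each direction among those called and the 2 with the highest level were named, except 1 gene that is not reported here; others are said to be singled out, or are given by level only. Control counts of 0 were replaced by 3 counts per library for lower bounds. Sequence sharing was computed in windows of 100 bases over GENCODE M21 transcripts, in which 56 of the 63 members were found by identifier. Motifs were searched in RefSeq promoters. Alternatives were RLE scaling, library size alone, other filters, DESeq2 1.42.0, a replicate block, other call rules and leaving out each library. The names Csta2, Adgre1 and S100a7l2 were not matched.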

Additional observations from a re-analysis of the deposited data

Results flagged for a closer look

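A pair of entries in the interval that are annotated as pseudogenes, and so were left out of the members, had more signal in senescent than in control cells. Sprr2g, listed as a polymorphic pseudogene, had 0 counts in control and 7 counts in each senescent library, a mean of 0.0992 CPM. Gm4202, a processed pseudogene, had means of 12.8 CPM (control) and 20.1 CPM (senescent). Its log2 fold change was 0.66, which is under the fold limit for a call. Of the other pseudogenes in the interval, RP23-36C9.2, RP24-574O8.7 and Rplp0-ps1 were called lower, with log2 fold changes of -1.38, -1.39 and -1.31.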

How the results depend on the processing

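With every gene of at least 1 count tested, 22 of 49 members were called (23.5% of all genes), and with at least 10 counts required in every library 0 of 1 (22.9% of all genes), since that filter removes genes that are silent in control. That same filter left 6 flanking genes, 10 cornification genes, 7 keratinocyte markers, 11 regulators and 4 S100 genes called. It also removed genes with few control counts from each of these lists. Fewer genes were thus tested in each, and these counts are not set against the 22.9%. Without a fold limit, 25 of 31 flanking genes, 34 of 41 regulators and 13 of 15 S100 genes were called, where 70.3% of all genes were. The summed senescent level of all 63 members was 85.9 CPM, or 58.0 CPM without Crct1. RLE scaling, library size alone and DESeq2 left every list count within 1.5 times its main value, and the log2 fold changes of the 6 named members with control counts kept their sign under the alternatives run. Leaving out each library in turn gave 12 to 14 members called, where 29.6% to 31.3% of all genes were called. Fitted fold changes of members with few control counts depended on single control libraries, from 8.53 to 11.03 for Sprr3 (without control replicates 1 and 2), 8.58 to 9.53 for Sprr1a, 8.71 to 9.75 for Crct1 and up to 8.21 for Sprr2k without control replicate 3. Gm9774 stood at 0.29 without senescent replicate 3. Same-numbered samples did not all deviate together (r across genes of -0.37, 0.29 and -0.26). The highest r, 0.50, was that of control replicate 1 with senescent replicate 3. The numbers were not taken as pairs, though with 3 samples in each group these values cannot settle it. A replicate block left 12 members and 5280 genes in all called. Fold changes of the named genes outside the complex were recomputed under the same settings, a choice made after seeing the data. Where tested, none of these changed sign, and the calls of Ugcg and Jun were the only ones to change. The depth limits silent members to the bounds given above, and counts cannot resolve near-identical genes such as Sprr2a1 and Sprr2a2.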
